A study of Homo sapiens with 12 samples.

Results

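The enzymes described here make arginine (ASS1, ASL), consume arginine and ornithine (ARG2, OAT), build polyamines (ODC1, AMD1, SRM, SMS) or start their breakdown (SAT1). They were taken by a fixed list of 14 Ensembl transcript identifiers for 9 genes. Each gene had 1 identifier in the deposited tables, so the set held 9 of the 19686 transcripts of the RNA table and 9 of the 19849 of the footprint table. The list was made by function and not by a cut on measured values, but with earlier results of these data known. The tables themselves carry no gene names, and symbols come from that list.

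The cells were RKO, an established human colon cancer line labelled wild type. They were plated in full medium and moved to arginine-free DMEM with dialysed serum, to which 400 uM arginine (fed) or 12.5 uM arginine (starved) was added for 24 hours. Each treatment gave 3 RNA-seq and 3 ribosome profiling libraries, 12 in all. RNA-seq measures transcript levels, and ribosome profiling counts the short mRNA fragments (footprints) that ribosomes protect. The labels do not say whether replicates were separate cultures, so p-values reflect only how these libraries vary, and that variation could be technical. The identity of the line was not checked against marker genes, for want of gene names.

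Arginine is made from citrulline and aspartate in 2 steps of the urea cycle, which many tumour lines run weakly and then depend on arginine from the medium. Arginase turns arginine into ornithine, which is shared between the mitochondrial aminotransferase OAT and the decarboxylase ODC1. ODC1 opens the polyamine pathway, whose products putrescine, spermidine and spermine bind nucleic acids and support growth. Several enzymes of this pathway are short-lived and are regulated at translation by polyamines themselves.

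Library totals ranged from 4670881 to 7967215 counts for RNA and from 2063952 to 4364383 for footprints. Levels below are CPM (counts divided by library size) scaled with TMM factors, which centre each library on the bulk of its transcripts. In these bulk libraries a change in the share of cells that express a gene and a change of level per cell cannot be told apart, and every change is relative to the remaining transcripts. No lengths of the counted regions were at hand, so levels were not compared between genes. "Called" means an adjusted p under 0.05 in the quasi-likelihood test of edgeR, Benjamini-Hochberg adjusted over all transcripts tested.

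Low arginine raised SAT1 about 10-fold or more in both assays, raised ASS1 and ASL RNA modestly, and lowered OAT. In RNA 3 of the 8 members tested rose (SAT1, ASS1, ASL), 2 fell (OAT, ARG2) and 3 were not called (ODC1, SRM, SMS). In footprints 3 rose (SAT1, ASS1, ODC1), 2 fell (OAT, SMS) and 3 were not called (ASL, ARG2, SRM). The footprint calls of ASS1, ODC1 and SMS were lost in most fits that left out 1 library. The ninth member, AMD1, had no counts. Over all transcripts tested, 67.9% were called in RNA (33.8% higher, 34.1% lower) and 39.8% in footprints (18.9% higher, 20.9% lower), so 5 of 8 members called in each assay is no result about the set. The members' median log2 fold change (starved over fed) was 0.11 in RNA and 0.16 in footprints, against −0.01 and 0.05 over all transcripts tested.

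**Figure D1:**
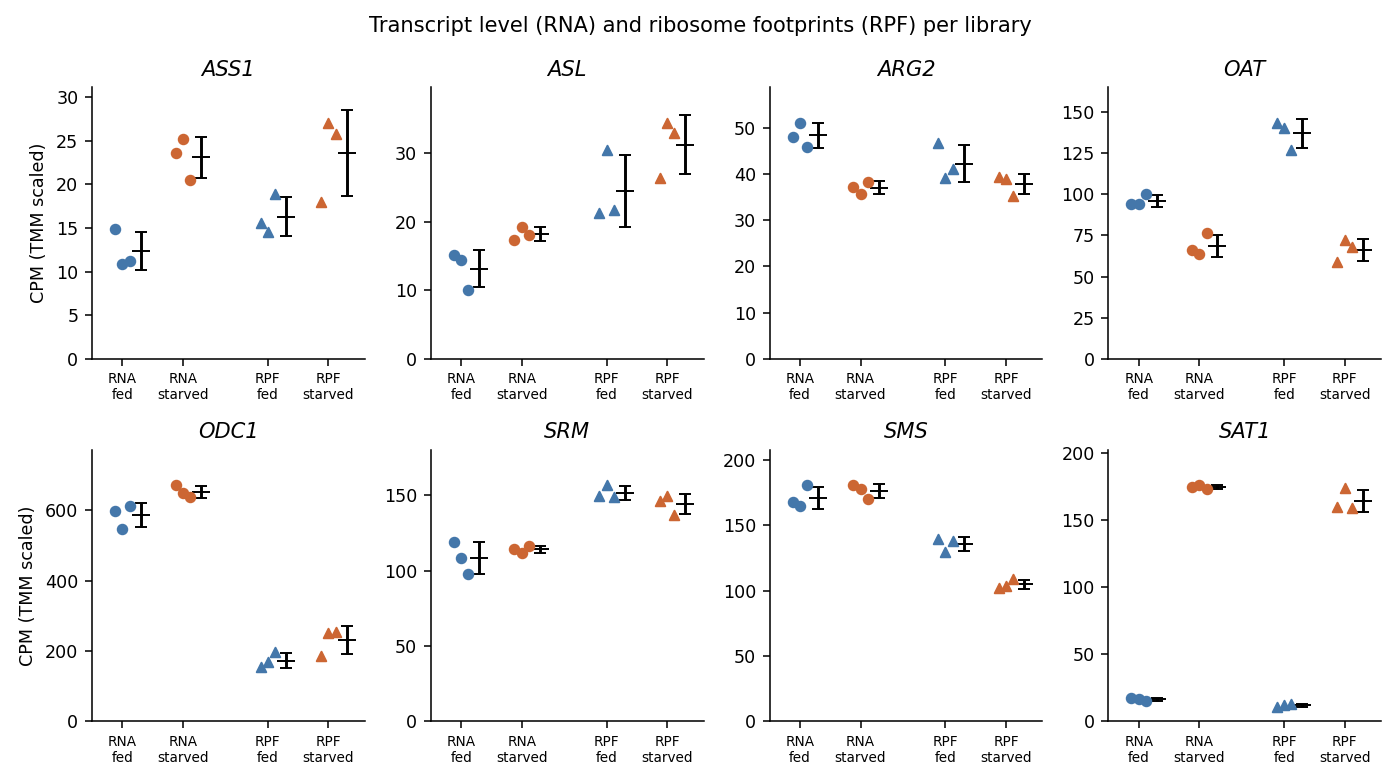
Level of 8 enzymes in every library, in CPM with TMM scaling (vertical axes from 0, 1 panel per gene): circles are RNA and triangles footprints (RPF), blue is fed and orange starved, and black bars are mean ± SD of 3 libraries. SAT1 goes from at most 17.6 CPM in fed to at least 159 CPM in starved libraries of either assay, while SRM overlaps between fed and starved libraries in both assays.

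SAT1 (ENST00000379270), the acetyltransferase that marks spermidine and spermine for export or oxidation, changed most. Its RNA was 17.6, 16.6 and 15.3 CPM in fed replicates 1 to 3 and 175, 176 and 173 CPM in starved replicates 1 to 3. Its footprints were 10.8, 12.02 and 13.05 CPM in fed and 160, 174 and 159 CPM in starved replicates 1 to 3. Every starved library lay far above every fed library in both assays. The log2 fold change was 3.40 in RNA (SE 0.09, edgeR adjusted p = 3.66e-42) and 3.80 in footprints (SE 0.15, edgeR adjusted p = 1.88e-08). On a linear scale this was 10.5-fold in RNA (95% interval 9.31 to 11.9) and 13.97-fold in footprints (11.1 to 17.5). From the top, SAT1 held rank 37 of 11572 transcripts tested in RNA and rank 14 of 13457 in footprints.

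Because SAT1 carried the largest change of the set, the 250 bases before its start site are shown from RefSeq (GRCh38.p14, chrX:23782923-23783172, plus strand), with matches to the CCAAT box, on either strand, in capitals.
SAT1: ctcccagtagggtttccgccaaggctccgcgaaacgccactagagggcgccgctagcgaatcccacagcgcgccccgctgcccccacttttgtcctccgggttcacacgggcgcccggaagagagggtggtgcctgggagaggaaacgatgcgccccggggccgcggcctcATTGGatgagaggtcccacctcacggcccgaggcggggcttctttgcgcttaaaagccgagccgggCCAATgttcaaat
The CCAAT letters occur on either strand in 34.6% of 35116 RefSeq windows of 300 bases (250 before and 50 after a start site). They were in 7 of the 13 windows of the members, 1 each of 7 genes (SAT1, OAT, ASL, ARG2, AMD1, SRM and SMS), so they do not set SAT1 apart. The letters TGATGNAAN, the core of the element bound by the amino acid stress factor ATF4, were searched on both strands. They were in 3.61% of all windows and in 0 of the 13 windows of the 9 members. A missing match says only that these letters are not in this window.

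ASS1 (ENST00000352480), argininosuccinate synthase, joins citrulline and aspartate and usually limits arginine synthesis. Its RNA was 14.8, 10.9 and 11.3 CPM in fed and 23.6, 25.2 and 20.5 CPM in starved replicates 1 to 3. All starved RNA libraries lay above all fed ones. The RNA log2 fold change was 0.88 (SE 0.14, edgeR adjusted p = 7.76e-08), a 1.84-fold increase. Its footprints were 15.6, 14.5 and 18.8 CPM in fed and 18.0, 27.1 and 25.8 CPM in starved replicates 1 to 3. Starved replicate 1 fell within the fed range, so the footprint groups overlapped. The footprint log2 fold change was 0.56 (SE 0.20, edgeR adjusted p = 0.0388). That call was lost without any 1 of fed replicates 1, 2 and 3 and starved replicates 2 and 3, with edgeR adjusted p between 0.0575 and 0.136. It was also lost without a filter on low counts (edgeR adjusted p = 0.0691) and in the DESeq2 Wald test (adjusted p = 0.125). RefSeq lists 14 pseudogenes named after ASS1. How the authors assigned reads that match several places is not given in the sources used here, which makes ASS1 uncertain in both assays. The same limit holds for SRM, with 3 such pseudogenes, and for ASL, ARG2, OAT and SMS, with 1 each. For ODC1 and SAT1 0 are listed under such names, and pseudogenes named in another way were not searched, so the limit may hold for them too.

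ASL (ENST00000304874), argininosuccinate lyase, releases arginine and fumarate from the product of ASS1. Its RNA was 15.1, 14.4 and 10.0 CPM in fed and 17.3, 19.3 and 18.0 CPM in starved replicates 1 to 3, again without overlap. The RNA log2 fold change was 0.47 (SE 0.14, edgeR adjusted p = 0.00316). Fed replicate 3 was the lowest, and without it the change was 0.30 with an edgeR adjusted p of 0.0659. Its footprints were 21.3, 30.6 and 21.7 CPM in fed and 26.4, 34.5 and 32.9 CPM in starved replicates 1 to 3, with overlap. Their log2 fold change of 0.39 (95% interval −0.0036 to 0.78, edgeR adjusted p = 0.105) was not called.

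ARG2 (ENST00000261783), the mitochondrial arginase, splits arginine into ornithine and urea. Its RNA was 48.0, 51.2 and 46.0 CPM in fed and 37.2, 35.7 and 38.4 CPM in starved replicates 1 to 3. No starved library reached the fed range, and the log2 fold change was −0.38 (SE 0.09, edgeR adjusted p = 0.000298). Its footprints were 46.7, 39.1 and 41.1 CPM in fed and 39.3, 39.1 and 35.3 CPM in starved replicates 1 to 3. Here the groups overlapped, and the log2 fold change of −0.17 (95% interval −0.47 to 0.13, edgeR adjusted p = 0.351) was not called.

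OAT (ENST00000368845), ornithine aminotransferase, interconverts ornithine and glutamate semialdehyde in mitochondria. Its RNA was 94.3, 93.9 and 100.4 CPM in fed and 65.9, 63.9 and 76.3 CPM in starved replicates 1 to 3. Its footprints were 144, 141 and 127 CPM in fed and 58.6, 72.1 and 67.8 CPM in starved replicates 1 to 3. Starved libraries lay below all fed libraries in both assays, by a wider margin in footprints. The log2 fold change was −0.49 in RNA (SE 0.08, edgeR adjusted p = 1.96e-07) and −1.05 in footprints (SE 0.13, edgeR adjusted p = 6.23e-05). Footprints were thus 2.07-fold lower and RNA 1.40-fold lower, and both calls held without any single library.

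ODC1 (ENST00000234111), ornithine decarboxylase, makes putrescine and is the entry to the polyamine pathway. Its RNA was 599, 548 and 614 CPM in fed and 672, 650 and 638 CPM in starved replicates 1 to 3. The starved RNA libraries lay just above the fed ones, but the log2 fold change of 0.15 (95% interval 0.0099 to 0.30, edgeR adjusted p = 0.0535) was not called. With all libraries it was called without a filter on low counts (edgeR adjusted p = 0.0482), in the DESeq2 Wald test (adjusted p = 0.0282) and in limma-voom (adjusted p = 0.0358). It was also called without fed replicate 1 (edgeR adjusted p = 0.0392) and without fed replicate 3 (edgeR adjusted p = 0.0215). Its footprints were 156, 167 and 196 CPM in fed and 185, 252 and 255 CPM in starved replicates 1 to 3, so starved replicate 1 overlapped the fed range. The footprint log2 fold change was 0.42 (SE 0.15, edgeR adjusted p = 0.0386). It was not called without fed replicate 1, fed replicate 2, starved replicate 2 or starved replicate 3, with edgeR adjusted p between 0.117 and 0.152, nor without a filter on low counts (0.0754).

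AMD1 (ENST00000368885), S-adenosylmethionine decarboxylase, supplies the aminopropyl groups for spermidine and spermine. Its transcript was listed at 0 in all 12 libraries, as were 1099 of the 19686 transcripts in both tables (5.58%). A count of 0 allows up to 0.0753 CPM in RNA and 0.173 CPM in footprints (3 counts over 6 libraries, counting error only). RefSeq lists 4 pseudogenes named after AMD1, and whether its reads were dropped or counted on another transcript was not tested. No change of AMD1 could be measured.

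SRM (ENST00000376957), spermidine synthase, adds the first aminopropyl group to putrescine. Its RNA ranged from 97.9 to 119 CPM in fed and from 112 to 117 CPM in starved libraries, and its footprints from 149 to 157 CPM and from 137 to 149.9 CPM. The groups overlapped in both assays. The log2 fold change was 0.072 in RNA (95% interval −0.077 to 0.22, edgeR adjusted p = 0.400) and −0.069 in footprints (−0.32 to 0.18, edgeR adjusted p = 0.662). Neither was called. The RNA sign turned with library totals and with the abundance trend removed, and the footprint sign turned only with that trend removed, a setting added after the data had been seen.

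SMS (ENST00000404933), spermine synthase, adds the next group to make spermine. Its RNA was 168, 165 and 181 CPM in fed and 181, 178 and 170 CPM in starved replicates 1 to 3. These overlapped, and the log2 fold change of 0.043 (95% interval −0.095 to 0.18, edgeR adjusted p = 0.598) was not called. The RNA sign turned only with library totals and with the abundance trend removed. Its footprints were 139, 130 and 138 CPM in fed and 102, 104 and 109 CPM in starved replicates 1 to 3, with no overlap. The footprint log2 fold change was −0.37 (SE 0.12, edgeR adjusted p = 0.0240), a 1.29-fold decrease. The call was lost without fed replicate 1, fed replicate 3, starved replicate 2 or starved replicate 3 (edgeR adjusted p between 0.0507 and 0.0811) with library totals in place of TMM factors (0.0520) and with a trend over abundance removed from each library (0.0791).

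Starved and fed libraries did not overlap for 6 of the 8 members in RNA and for 3 of 8 in footprints. Over all transcripts tested the share without overlap was 69.8% in RNA and 50.6% in footprints.

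**Figure D2:**
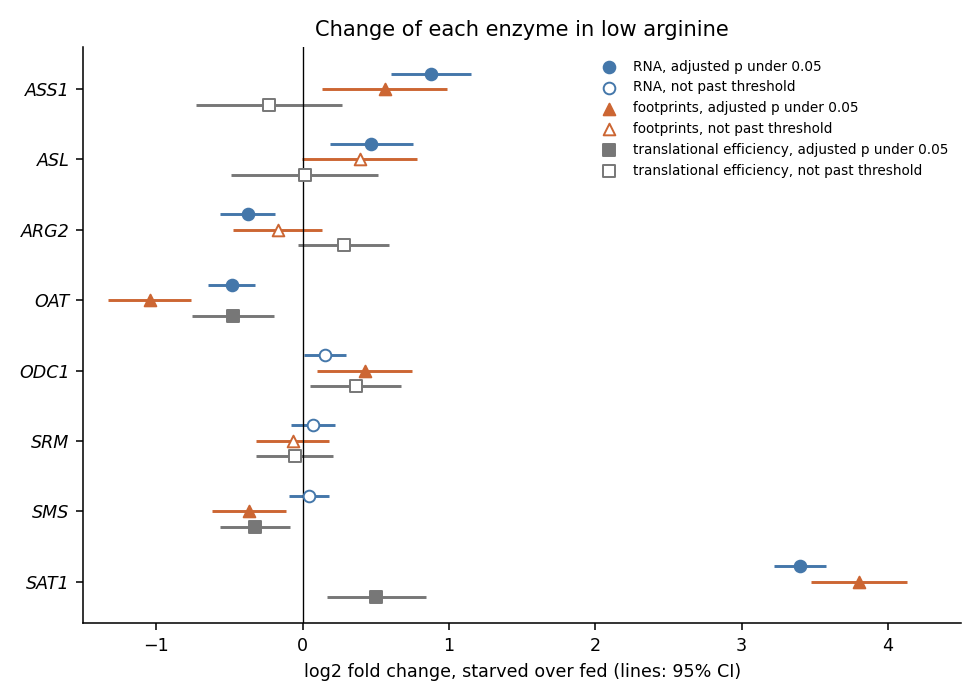
Log2 fold change, starved over fed, of 8 enzymes in RNA (blue circles), footprints (orange triangles) and translational efficiency (grey squares), with 95% confidence intervals as lines and filled symbols for an edgeR adjusted p under 0.05. SAT1 stands at 3.40 in RNA and 3.80 in footprints, and the other values lie between −1.05 and 0.88.

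Translational efficiency, the number of footprints per RNA, was tested over all 12 libraries by the assay-by-treatment interaction. It describes ribosomes on the RNA, and neither the protein made nor the speed of ribosomes in low arginine was measured. The ratio rose for SAT1, fell for OAT and SMS, and was not called for ASS1, ASL, ARG2, ODC1 and SRM. Over all 11027 transcripts tested 22.8% were called, 11.1% higher and 11.7% lower, beside 3 of 8 members. The median log2 change was −0.02 for the members and −0.02 over all. Its scaling used only transcripts kept in both assays, so an efficiency change need not equal the footprint change minus the RNA change above.

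On a log2 scale, the efficiency of OAT fell by 0.48 (SE 0.13, edgeR adjusted p = 0.0145). It was not called without starved RNA replicate 3 (−0.40, edgeR adjusted p = 0.0525), with library totals in place of TMM factors (0.0523) or with the abundance trend removed (0.0672). The efficiency of SMS fell by 0.33 (SE 0.12, edgeR adjusted p = 0.0468), with footprints lower and no called RNA change. That call was lost in 9 of the 12 fits that left out 1 library, all but those without fed RNA replicate 3, fed footprint replicate 2 or starved footprint replicate 1. It was also lost with library totals (edgeR adjusted p = 0.188), a stricter filter (0.0657) and the abundance trend removed (0.512). The efficiency of SAT1 rose by 0.50 (SE 0.16, edgeR adjusted p = 0.0313). Its call was lost in 7 of the 12, those without fed RNA replicate 1 or 2, any starved RNA replicate, or fed footprint replicate 1 or 2, where its change was between 0.40 and 0.50. It was also lost without a filter on low counts (edgeR adjusted p = 0.119) and in the DESeq2 Wald test (adjusted p = 0.0865). Fed footprint libraries held only 47, 24 and 27 SAT1 counts in replicates 1 to 3.

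Which efficiency changes passed the test depended on the scaling, while OAT and SMS stayed negative and SAT1 positive in every alternative run. DESeq2 size factors gave the same calls as TMM factors, for OAT (−0.49), SMS (−0.34) and SAT1 (0.48). With library totals in place of TMM factors, SAT1 and ODC1 were called, and OAT was −0.38 and SMS −0.23, neither called. With the abundance trend removed the same members were called, and OAT was −0.34 and SMS −0.12, neither called. With library totals all transcripts split into 1567 higher and 803 lower in place of 1227 and 1292. The change of ODC1 was 0.36 with TMM factors (95% interval 0.050 to 0.67, edgeR adjusted p = 0.0879) and 0.46 with library totals (edgeR adjusted p = 0.0395). It was also called without fed footprint replicate 3 (0.45) and without starved footprint replicate 1 (0.46). The uncalled changes were −0.23 for ASS1 (95% interval −0.73 to 0.27), 0.015 for ASL (−0.49 to 0.52), 0.28 for ARG2 (−0.029 to 0.59) and −0.055 for SRM (−0.32 to 0.21). Those of ASS1, ASL and ARG2 leave room for changes as large as those called in other members. That of SRM ends at −0.32, close to the called SMS change of −0.33, so SRM is hardly set apart.

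**Figure D3:**
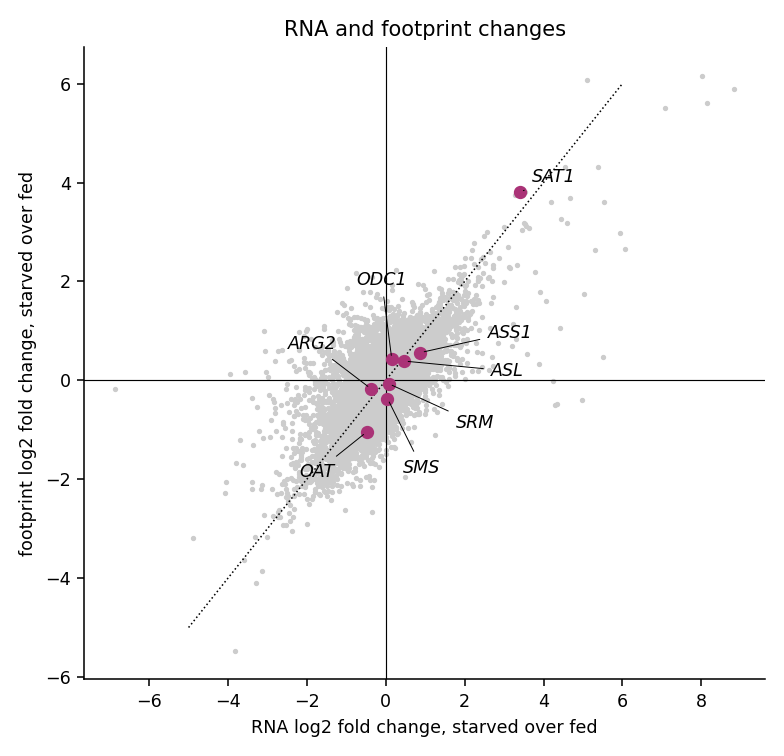
Footprint against RNA log2 fold change, starved over fed, for the 11027 transcripts tested in both assays (grey) and 8 enzymes (purple, labelled), with the dotted line marking equal changes. SAT1 lies at 3.40 and 3.80, far from the cloud's centre, and OAT lies at −0.49 and −1.05, below the line.

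ODC1 carried few footprints for its RNA in fed cells. Its footprint CPM was 0.295 of its RNA CPM, and 6.50% of the 11027 transcripts had a lower ratio. In starved cells the ratio was 0.353, with 12.7% of transcripts below it. The ratios of the other members in fed cells ran from 0.723 for SAT1 to 1.86 for ASL, around a median of 0.930 over all transcripts. These are descriptions from group means, and whether footprints and RNA were counted over the same region is not given in the sources used here.

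The ratio of 2 enzymes within a library does not depend on how libraries are scaled. Members were compared in 5 pairs, not all of them neighbours in the pathway. The pairs were chosen after the values had been seen, and they gave 10 ratios over the 2 assays. With 3 against 3 libraries the exact two-sided permutation test cannot go below p = 0.1, which is 0.143 after adjustment over the 10. SAT1 over ODC1, breakdown against entry, was 0.0294, 0.0304 and 0.0249 in fed and 0.260, 0.271 and 0.272 in starved RNA replicates 1 to 3, a 9.52-fold rise (exact permutation p = 0.1). In footprints it was 0.0690, 0.0719 and 0.0667 in fed and 0.862, 0.691 and 0.623 in starved replicates 1 to 3, a 10.4-fold rise (exact permutation p = 0.1). The starved and fed values were far apart in both assays.

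OAT over ODC1, the enzymes that compete for ornithine, was 0.157, 0.171 and 0.164 in fed and 0.0981, 0.0984 and 0.120 in starved RNA replicates 1 to 3. In footprints it was 0.922, 0.841 and 0.649 in fed and 0.316, 0.287 and 0.265 in starved replicates 1 to 3, a 2.76-fold fall (exact permutation p = 0.1), against a 1.56-fold fall in RNA (exact permutation p = 0.1). ARG2 over OAT overlapped in RNA (exact permutation p = 0.3). In footprints it was 1.87-fold higher in starved libraries without overlap (exact permutation p = 0.1).

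SMS over SRM, the successive synthases, was 1.41, 1.52 and 1.84 in fed and 1.58, 1.60 and 1.46 in starved RNA replicates 1 to 3, and these overlapped (exact permutation p = 0.9). In footprints it was 0.933, 0.827 and 0.929 in fed and 0.699, 0.692 and 0.794 in starved replicates 1 to 3, without overlap and 1.23-fold lower (exact permutation p = 0.1). ASS1 over ASL was 0.984, 0.757 and 1.13 in fed and 1.36, 1.31 and 1.14 in starved RNA replicates 1 to 3, where the nearest libraries almost touched (exact permutation p = 0.1). In footprints it overlapped (exact permutation p = 0.8).

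**Figure D4:**
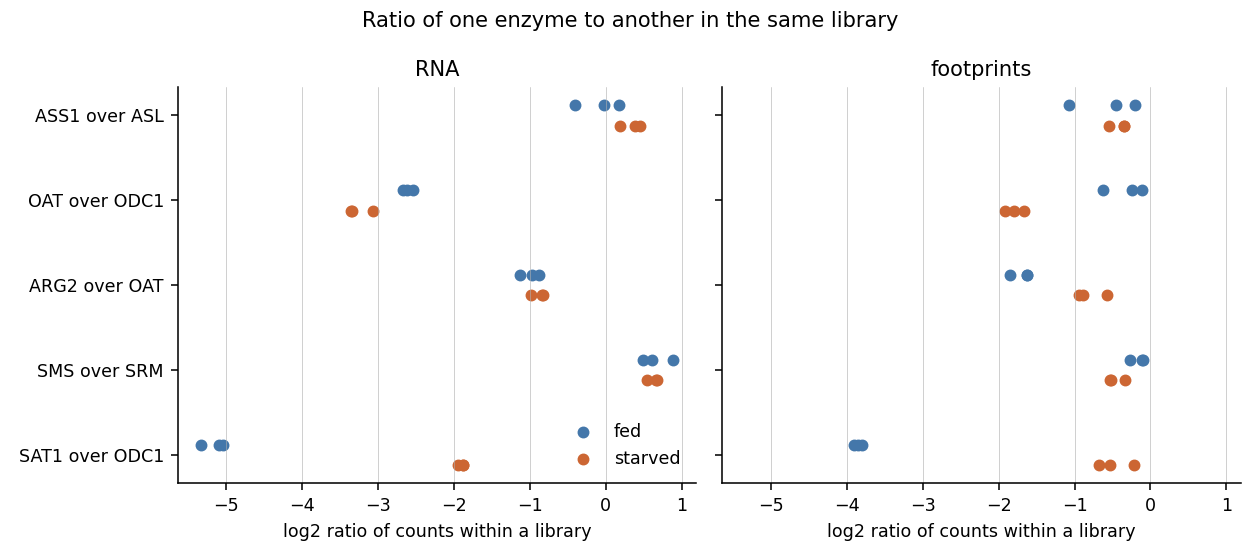
Log2 ratio of the counts of 2 enzymes within each library, RNA on the left and footprints on the right, with 1 point per library (blue fed, orange starved). SAT1 over ODC1 rises 9.52-fold in RNA and 10.4-fold in footprints, while SMS over SRM overlaps in RNA and separates in footprints.

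The E-box CACGTG, a palindrome bound by MYC and related factors, and the cAMP response element TGACGTCA, also a palindrome, were searched after the members' sequences had been read. No match to either overlapped a match to another motif searched in the member windows. The E-box was in 7.26% of all 35116 windows and in 3 of the 13 member windows, 1 each of ASS1, ODC1 and SRM; that of ODC1 holds another after the start site, not shown. The cAMP response element was in 1.85% of all windows and in the 1 window of ARG2, at 2 places. Sites before the start site are shown in 30 bases (RefSeq, GRCh38.p14) because these genes differ in response, with the motif in capitals.
ASS1, chr9:130444878-130444907, plus strand: gcgcgtccccgcCACGTGtccccggtcacc
ODC1, chr2:10448024-10448053, minus strand: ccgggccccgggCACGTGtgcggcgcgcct
SRM, chr1:11060200-11060229, minus strand: ccggccgggcccCACGTGgcccctggagcg
ARG2, distal, chr14:67619737-67619766, plus strand: ccagagtggggTGACGTCAtcgaaggcacg
ARG2, proximal, chr14:67619845-67619874, plus strand: caatgtggcggTGACGTCAcggggcgggcg
The E-box begins 71 bases before a start site in ASS1, 29 in ODC1 and 199 in SRM. The 3 genes with an E-box had RNA log2 fold changes of 0.88, 0.15 and 0.072, and ASS1 alone of them was called in RNA. Matches are descriptions of the letters in these windows and not of binding. As these motifs were searched after the sequences had been read, the shares beside the members test no enrichment.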

How the data were processed

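The authors deposited 1 table of whole-number counts per Ensembl transcript for each assay, with no normalization. The submitters' processing notes name the build GRCh38.p13 and the tools STAR, cutadapt, DESeq2 and UMI-tools. Their roles and versions, the counting tool, the handling of reads matching several places and the counted region were not given in the sources used here. Per the labels' protocols, RiboCop removed ribosomal RNA and RNA libraries came from a TruSeq kit.

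The whole tables were fitted in R 4.3.3 by edgeR 4.0.16 (two-sided quasi-likelihood F test, TMM factors, filterByExpr), treatment as the only term in each assay, and the interaction of assay and treatment for efficiency, with TMM factors within each assay. The threshold was an adjusted p of 0.05. Standard errors were derived from the F statistic and intervals from the t distribution. Scripts were tested on simulated data. Alternatives used DESeq2 1.42.0 and limma 3.58.1. The exact permutation tests used SciPy 1.17.1. The rule for named genes was every member, whatever its values. The members and lists were chosen with earlier results of these data known. Planned lists of other pathway genes, marker genes and transcripts of like pattern needed names for the identifiers and were not used here, nor were protein features and footprints per codon. All 12 sample columns were used.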

Additional observations from a re-analysis of the deposited data

How the results depend on the processing

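Counts of all transcripts called stayed within 1.5 times of the reported counts in every alternative run. In RNA 5 or 6 members were called in every alternative, the sixth being ODC1, and without fed replicate 3 ODC1 was called and ASL was not. In footprints 5 members were called, and again 5 with DESeq2 size factors, a stricter filter or limma-voom. The count was 4 with library totals, the DESeq2 Wald test or the abundance trend removed. It was 3 without a filter on low counts, 3 with the replicate number as a block and 2 to 5 when 1 library was left out. In efficiency 3 were called, and again 3 with DESeq2 size factors or limma-voom. Only 2 were called with library totals, no filter, a stricter filter, the DESeq2 Wald test or the abundance trend removed. The replicate block left 1, as did RNA and footprint libraries of the same group and number paired as a block. Leaving out 1 library gave 0 to 4. The calls of SAT1 and OAT in RNA and footprints, and of ASS1 and ARG2 in RNA, held in all 14 alternatives of each. Same-numbered libraries did not all deviate together (correlations between −0.212 and 0.128), so the numbers were not taken as pairs. With the replicate block, ODC1 RNA was called (edgeR adjusted p = 0.0495), and ASS1 footprints (0.0734), SMS footprints (0.0669), SMS efficiency (0.0948) and SAT1 efficiency (0.0623) were not. With RNA and footprint libraries paired, SMS (0.0755) and SAT1 efficiency (0.0573) were not called either. Fits without a library have fewer samples, and the cause of the other changes was not tested.

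Signs turned only for uncalled values near 0. With library totals the median RNA log2 fold change of all transcripts moved from −0.01 to −0.12, the RNA changes became −0.041 for SRM and −0.070 for SMS, and the efficiency change of SRM became 0.040. With the abundance trend removed, an alternative chosen after seeing the data, they became −0.078, −0.14 and 0.14, and SRM footprints 0.052. The efficiency of ASL was −0.0025 with DESeq2 size factors, −0.090 without a filter, −0.017 with the DESeq2 Wald test, −0.024 with the replicate block, −0.12 with the trend removed and between −0.13 and 0.16 when 1 library was left out. The low fed counts of SAT1, ASS1 and ASL footprints limit the precision of their changes.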
